A study of Mus musculus with 8 samples.

Results

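The 33 genes described here encode the mitochondrial pyruvate carrier and the pyruvate dehydrogenase complex with its kinases and a phosphatase. They also encode enzymes of the tricarboxylic acid (TCA) cycle, cytosolic forms of some of these (Aco1, Idh1 and Mdh1), pyruvate carboxylase and the malic enzymes. They were chosen by name from a table of 35072 genes, with earlier results of these data known, and each name matched 1 row. RNA was sequenced from wildtype mouse CD8 T cells of spleen and lymph nodes, with 4 libraries of cells given 2 mM formate and 4 libraries of cells given PBS as vehicle. All cells had started as naive cells and had been activated for 18 h through CD3 and CD28 in the presence of interleukin-12 before the 24 h with formate or PBS. No source used here gives the age or strain of the mice. The labels do not say whether the libraries of a group came from separate animals. The p-values therefore measure a spread among libraries that may be technical.

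Pyruvate made by glycolysis enters the mitochondrion through the carrier formed by Mpc1 and Mpc2. The pyruvate dehydrogenase complex turns it into acetyl-CoA, and its kinases switch the complex off while its phosphatases switch it on. Citrate synthase joins acetyl-CoA to oxaloacetate, and the cycle then runs through isocitrate, 2-oxoglutarate, succinyl-CoA, succinate, fumarate and malate back to oxaloacetate. Activated T cells use the cycle both for respiration and as a source of building blocks such as citrate and aspartate.

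Library totals ranged from 29361986 to 41393093 estimated counts, and values are given as CPM, counts scaled to a common library total with TMM factors. CD8 T cell identity genes, 7 of 8 listed, summed to 1770 to 1960 CPM with formate and to 1730 to 2050 CPM with PBS. B cell markers summed to 16.9 to 30.1 and 15.2 to 26.6 CPM, CD4 T cell markers to 12.8 to 22.0 and 12.8 to 20.5 CPM, and myeloid and dendritic markers to 3.71 to 6.29 and 3.25 to 5.46 CPM with formate and with PBS. Stromal and endothelial markers, nearly all from Pecam1, summed to 17.4 to 23.1 and 17.4 to 24.2 CPM, and erythroid and platelet markers to at most 0.416 and 0.146 CPM. Of the 4 natural killer markers none exceeded 0.142 CPM, and the erythroid and platelet genes Hba-a1 and Pf4 and the endothelial gene Cdh5 were at 0 in all 8 libraries. The sample titles carry codes that fall into a set of codes 1 to 8 and a set of codes 10 to 14. The codes form neighbours, of which the higher is a formate library and the lower a PBS library (2 and 1, 8 and 7, 11 and 10, 14 and 13). Values below are listed in that order, codes 2, 8, 11 and 14 for formate and codes 1, 7, 10 and 13 for PBS. No label states that neighbours belong together, and results are therefore given both without a pairing term and with the neighbours as a replicate block.

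With formate 25 of the 33 genes had a log2 change below 0, against 51.8% of the 13299 genes tested, and the median over the 33 was -0.10, against -0.01 over all tested genes. Most changes were small. The lowest log2 change was -0.34, for Sdha, and the highest was 0.16, for Mpc2. All 33 passed the filter on low counts. Without a pairing term 0 of the 33 passed an adjusted p of 0.05 in edgeR's quasi-likelihood test in either direction, where 0.0% of all tested genes were called lower and 0.00752% higher. DESeq2 without a pairing term also called 0 of them. An unadjusted p under 0.05 was reached by 3 of them, Pdha1, Aco1 and Sdha, against 4.77% of all tested genes.

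With the neighbours as a block 9 of 33 genes fell (27.3%, against 7.52% of all tested genes), 0 rose (against 5.35%) and 24 did not pass. The 9 were Pdha1 and Dlat of pyruvate dehydrogenase, Cs, Ogdh, Suclg2, Sdha and Mdh2 of the cycle, the cytosolic aconitase gene Aco1, and the malic enzyme gene Me2. Calls are more frequent among abundant genes. Where the mean reached 50 CPM, the block fit called 17.7% of tested genes lower, and 8 of the 23 members (34.8%). Formate lay below PBS in 4 of 4 neighbour pairs for 13 members (39.4%, against 19.5% of all tested genes) and above in 4 of 4 for 2 members, Pdp1 and Sdhd (6.06%, against 16.0%). The ranges of the groups were separate for 1 member, Pdha1 (3.03%, against 4.29%).

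**Figure D1:**
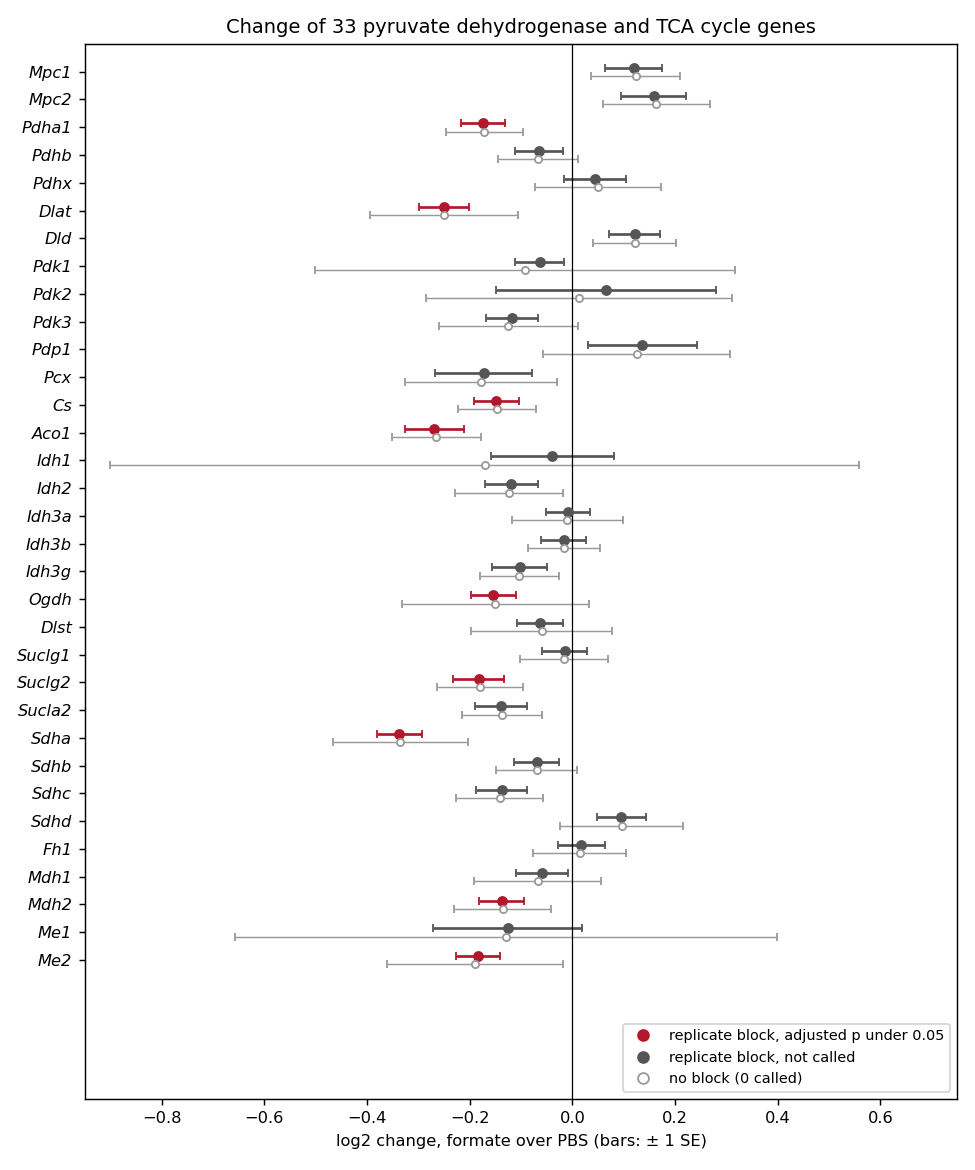
Log2 change of each of the 33 genes, formate over PBS, from edgeR with the neighbours as a block (filled) and without a pairing term (open), with bars of 1 SE on each side. The 9 genes called lower with the block (red) lie between -0.34 and -0.14, and their open points sit close to the filled ones with wider bars. For Idh1 the open point is at -0.17 and the filled one at -0.04.

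The 9 calls rest on the pairing. With the library set as a term in place of the pairs, edgeR called 0 of the 33 lower and 0 higher, and the adjusted p of Sdha was 0.197. Over all tested genes that fit called 0 lower and 1 higher. Calls were also lost in fits that left out 1 pair and so held fewer libraries. Sdha was called in each of the 4 fits that left out 1 pair. Dlat and Aco1 were called in 3 of the 4, Pdha1, Suclg2 and Me2 in 1, and Cs, Ogdh and Mdh2 in 0. The log2 change in these fits lay between -0.162 and -0.130 for Cs. It lay between -0.177 and -0.130 for Ogdh and between -0.145 and -0.125 for Mdh2. The count called lower was 2 without codes 1 and 2, 4 without codes 7 and 8, 5 without codes 10 and 11, and 2 without codes 13 and 14. Over all tested genes the count called lower also dropped, from 1000 with all pairs to 177, 419, 815 and 278 in the same order. The median change of the 33 genes was -0.01 in the pair of codes 1 and 2 and -0.07 in that of codes 7 and 8. It was -0.18 in the pair of codes 10 and 11 and -0.12 in that of codes 13 and 14. The share of counts from mitochondrially encoded genes was 0.618, 0.560, 0.906 and 0.725% in the formate libraries and 0.438, 0.414, 0.429 and 0.566% in the PBS libraries, higher with formate in 4 of 4 pairs. Its part in the lower values of the nuclear genes was not tested. In bulk RNA, fewer cells that express a gene and less RNA per cell cannot be told apart.

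**Figure D2:**
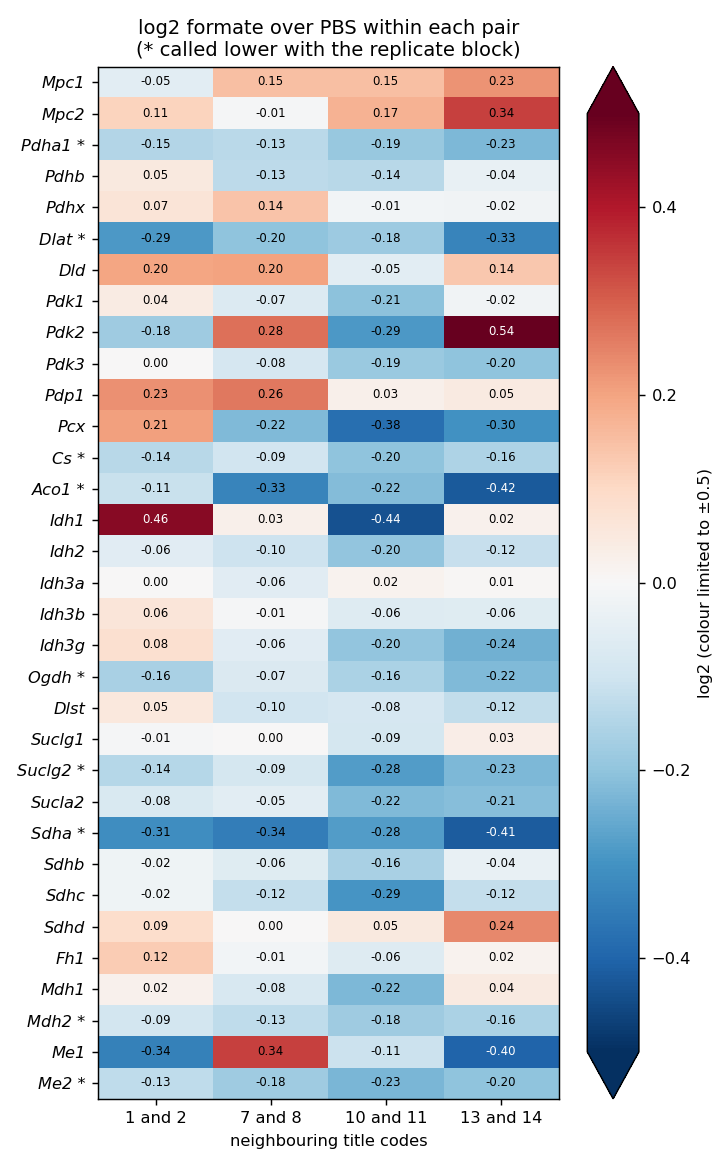
Log2 formate over PBS within each pair of neighbouring title codes for the 33 genes, with red above 0 and blue below 0. Sdha, Dlat and Aco1 are below 0 in all 4 pairs, and Idh1 runs from 0.46 in codes 1 and 2 to -0.44 in codes 10 and 11.

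The carrier genes did not pass. Mpc1 had 43.9, 51.6, 54.7 and 53.5 CPM with formate and 45.5, 46.4, 49.3 and 45.8 CPM with PBS. Mpc2 had 35.4, 36.5, 40.4 and 46.7 CPM with formate and 32.7, 36.6, 35.8 and 36.9 CPM with PBS. Formate was above PBS in 3 of 4 pairs for each gene, and the ranges of the groups overlapped. Mpc2 had a log2 change of 0.16 (SE 0.06 with the block, edgeR adjusted p = 0.108; SE 0.10 without it, 0.998). Exons of Mpc1 overlap an antisense gene over 23.1% of their bases, and a pseudogene, Mpc1-ps, is annotated, so its counts are uncertain.

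Pyruvate dehydrogenase is built from an E1 part (Pdha1, Pdhb), an E2 core (Dlat) with its binding protein (Pdhx), and the E3 dehydrogenase Dld that it shares with 2-oxoglutarate dehydrogenase. Of these 5 genes 2 fell with the block, 0 rose and 3 did not pass.

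Pdha1, the E1 alpha subunit that the kinases phosphorylate (ENSMUSG00000031299, chromosome X, 160122209 to 160138413, GRCm38), had 190, 186, 178 and 169 CPM with formate and 211, 203, 203 and 198 CPM with PBS. Every formate library lay below every PBS library. The means were 181 ± 9.41 and 204 ± 5.48 CPM with formate and PBS (SD, n = 4; log2 change -0.17, SE 0.04, edgeR adjusted p = 0.0171 with the block; SE 0.07, 0.998 without). Leaving out codes 1 and 2 gave an adjusted p of 0.0922, leaving out 7 and 8 gave 0.0543 and leaving out 13 and 14 gave 0.0775, and each ended the call. Exons of Pdha1 overlap those of Map3k15 on the opposite strand over 16.1% of their bases, and no source used here states whether counting used strand.

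Dlat, the E2 acetyltransferase that carries the lipoyl arms (ENSMUSG00000000168, chromosome 9, 50634633 to 50659780), had 77.2, 78.1, 58.5 and 60.8 CPM with formate and 94.2, 89.7, 66.3 and 76.4 CPM with PBS. The groups overlapped, since libraries with codes 10 to 14 were lower in both, but each formate library lay below its neighbour. Means were 68.6 ± 10.4 and 81.6 ± 12.7 CPM with formate and PBS (SD, n = 4; log2 change -0.25, SE 0.05, edgeR adjusted p = 0.00512 with the block; SE 0.14, 0.998 without). Without codes 1 and 2 the adjusted p was 0.0628.

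Pdhb, the E1 beta partner of Pdha1, averaged 105 ± 3.46 CPM with formate and 110 ± 7.62 CPM with PBS and did not pass (edgeR adjusted p = 0.391 with the block). Pdhx, which anchors E3 to the core, averaged 28.3 ± 4.03 and 27.4 ± 2.65 CPM with formate and PBS (0.684). Dld averaged 137 ± 7.99 CPM with formate and 126 ± 6.94 CPM with PBS, with a log2 change of 0.12 (0.120), and formate was above PBS in 3 of 4 pairs. With the block, Dld was called higher without codes 10 and 11 (0.0285) and with scaling by library size only (0.0444), and its change was 0.02 with offsets for GC content. The changes of the subunits lay on both sides of 0, and the differences between them were not tested.

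Kinases and phosphatase of the complex gave no call. Pdk3 had 65.6, 65.5, 83.5 and 69.6 CPM with formate and 65.5, 69.4, 94.96 and 80.1 CPM with PBS (log2 change -0.12, edgeR adjusted p = 0.131 with the block), and it was called lower only when offsets for GC content were added (-0.20, 0.0218). Pdk2 lay between 0.946 and 2.39 CPM in the 8 libraries. Pdp1, a phosphatase that reactivates the complex, averaged 6.42 ± 0.854 and 5.88 ± 1.25 CPM with formate and PBS (log2 change 0.14, edgeR adjusted p = 0.430 with the block), above PBS in 4 of 4 pairs by 0.23, 0.26, 0.03 and 0.05 on the log2 scale. The kinase gene Pdk4 was at or below 0.0995 CPM in every library and was not tested.

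Pcx, pyruvate carboxylase, which refills the cycle with oxaloacetate, had 13.9, 10.3, 12.9 and 11.7 CPM with formate and 12.03, 11.96, 16.8 and 14.4 CPM with PBS. Its log2 change was -0.18 (SE 0.15, edgeR adjusted p = 0.998 without the block; -0.17, SE 0.09, 0.244 with it). The pair with codes 1 and 2 lay at 0.21 and the other pairs between -0.38 and -0.22.

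In the segment from citrate to 2-oxoglutarate all 7 genes had a log2 change below 0, of which 2 fell with the block. These 7 include genes of cytosolic enzymes, Aco1 and Idh1, which are not part of the mitochondrial cycle. Of these 7, Idh3a and Idh1 lay above PBS in 3 of 4 pairs each. With the block and offsets for GC content 6 of the 7 were below 0. Cs, citrate synthase (ENSMUSG00000005683, chromosome 10, 128337734 to 128362479), had 373, 382, 352 and 341 CPM with formate and 411, 407, 405 and 380 CPM with PBS. One PBS library, code 13, lay below the highest formate library, and the others lay above all of them. Means were 362 ± 18.7 and 401 ± 14.2 CPM with formate and PBS (SD, n = 4; log2 change -0.15, SE 0.04, edgeR adjusted p = 0.0368 with the block; SE 0.08, 0.998 without). The call was lost without any 1 pair (0.0725 to 0.162) and with offsets for GC content (0.0510).

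Aco1 encodes the cytosolic aconitase, which doubles as the iron regulatory protein that binds mRNAs when its iron-sulfur cluster is missing (ENSMUSG00000028405, chromosome 4, 40143081 to 40198338). It had 50.5, 44.0, 43.3 and 40.3 CPM with formate and 54.6, 55.3, 50.2 and 53.9 CPM with PBS. The formate library with code 2 overlapped the PBS range and the other formate libraries lay below it. Means were 44.5 ± 4.30 and 53.5 ± 2.25 CPM with formate and PBS (SD, n = 4; log2 change -0.27, SE 0.06, edgeR adjusted p = 0.00888 with the block; SE 0.09, 0.998 without). Without codes 13 and 14 the adjusted p was 0.0630.

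The NAD-linked isocitrate dehydrogenase has 3 kinds of subunit. Idh3a, the catalytic subunit, averaged 164 ± 14.8 and 165 ± 18.4 CPM, and Idh3b 148 ± 5.25 and 149 ± 3.61 CPM, with formate and PBS. Idh3g averaged 106 ± 4.87 CPM with formate and 114 ± 6.68 CPM with PBS. Their log2 changes with the block were -0.01 (SE 0.04), -0.02 (SE 0.04) and -0.10 (SE 0.05), and none passed (edgeR adjusted p = 0.926, 0.838 and 0.219). Idh2, the NADP-linked mitochondrial enzyme, had 41.3, 45.3, 49.0 and 41.8 CPM with formate and 42.9, 48.7, 56.2 and 45.3 CPM with PBS. It was below PBS in 4 of 4 pairs and did not pass (-0.12, 0.146 with the block).

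From 2-oxoglutarate to succinate 2 of 5 genes fell with the block. Ogdh, the E1 subunit of 2-oxoglutarate dehydrogenase (ENSMUSG00000020456, chromosome 11, 6291633 to 6356642), had 263, 230, 168 and 181 CPM with formate and 294, 242, 187 and 211 CPM with PBS. The library sets differed by more than the groups did, and each formate library lay below its neighbour. Means were 211 ± 44.1 and 234 ± 46.1 CPM with formate and PBS (SD, n = 4; log2 change -0.15, SE 0.04, edgeR adjusted p = 0.0323 with the block; SE 0.18, 0.998 without). The call was lost without any 1 pair (0.0549 to 0.158) and with offsets for GC content (0.0752). Dlst, the E2 core of the same complex, averaged 197 ± 30.1 and 206 ± 26.3 CPM and did not pass (log2 change -0.06, 0.386 with the block).

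Succinyl-CoA ligase pairs the alpha subunit Suclg1 with a beta subunit that makes GTP (Suclg2) or ATP (Sucla2). Suclg2 (ENSMUSG00000061838, chromosome 6, 95473009 to 95718800) had 65.5, 69.6, 56.6 and 60.5 CPM with formate and 72.3, 74.0, 68.8 and 70.7 CPM with PBS. Only the formate library with code 8 reached into the PBS range. Means were 63.1 ± 5.71 and 71.4 ± 2.22 CPM with formate and PBS (SD, n = 4; log2 change -0.18, SE 0.05, edgeR adjusted p = 0.0257 with the block; SE 0.08, 0.998 without). The call ended when codes 1 and 2 were left out (0.103), and likewise for 10 and 11 (0.0735) and for 13 and 14 (0.106). Sucla2 had 63.1, 67.8, 58.9 and 57.0 CPM with formate and 66.5, 70.3, 68.5 and 66.0 CPM with PBS, below PBS in 4 of 4 pairs, and did not pass (-0.14, SE 0.05, 0.0793 with the block; 0.0183 with offsets for GC content added). The ratio of Suclg2 to Sucla2 within a library was 1.02 ± 0.0435 with formate and 1.05 ± 0.0365 with PBS. Suclg1 averaged 116 ± 6.77 and 117 ± 9.18 CPM (log2 change -0.02, 0.863 with the block).

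Succinate dehydrogenase, which is also complex II of the respiratory chain, has a flavoprotein (Sdha), an iron-sulfur protein (Sdhb) and 2 membrane anchors (Sdhc and Sdhd). Of these 4 genes Sdha fell with the block, 0 rose and 3 did not pass. Sdha (ENSMUSG00000021577, chromosome 13, 74322254 to 74350280) had 250, 224, 197 and 182 CPM with formate and 310, 284, 239 and 242 CPM with PBS. The highest formate library, code 2, lay above the PBS libraries with codes 10 and 13, and each formate library lay below its neighbour. Means were 213 ± 30.2 and 269 ± 34.2 CPM with formate and PBS (SD, n = 4). Its log2 change was -0.34 (SE 0.04, edgeR adjusted p = 0.00124 with the block; SE 0.13, 0.998 without). The adjusted p stayed between 0.00345 and 0.0280 when 1 pair was left out, and the pairs lay at -0.31, -0.34, -0.28 and -0.41 on the log2 scale.

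Sdhb had 156, 171, 158 and 169 CPM with formate and 159, 178, 177 and 174 CPM with PBS (log2 change -0.07, SE 0.04, edgeR adjusted p = 0.319 with the block). Sdhc had 99.1, 105, 103 and 105 CPM with formate and 101, 114, 126 and 114 CPM with PBS (-0.14, SE 0.05, 0.0775). Both lay below PBS in 4 of 4 pairs with overlapping ranges. Sdhd had 160, 188, 200 and 214 CPM with formate and 150, 187, 194 and 182 CPM with PBS, above PBS in 4 of 4 pairs (0.10, SE 0.05, 0.204). The ratio of Sdha to Sdhb, which does not depend on the scaling between libraries, was 1.60, 1.31, 1.25 and 1.07 with formate and 1.95, 1.60, 1.35 and 1.40 with PBS. It was lower with formate in 4 of 4 pairs, and the difference between the subunits was not tested.

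**Figure D3:**
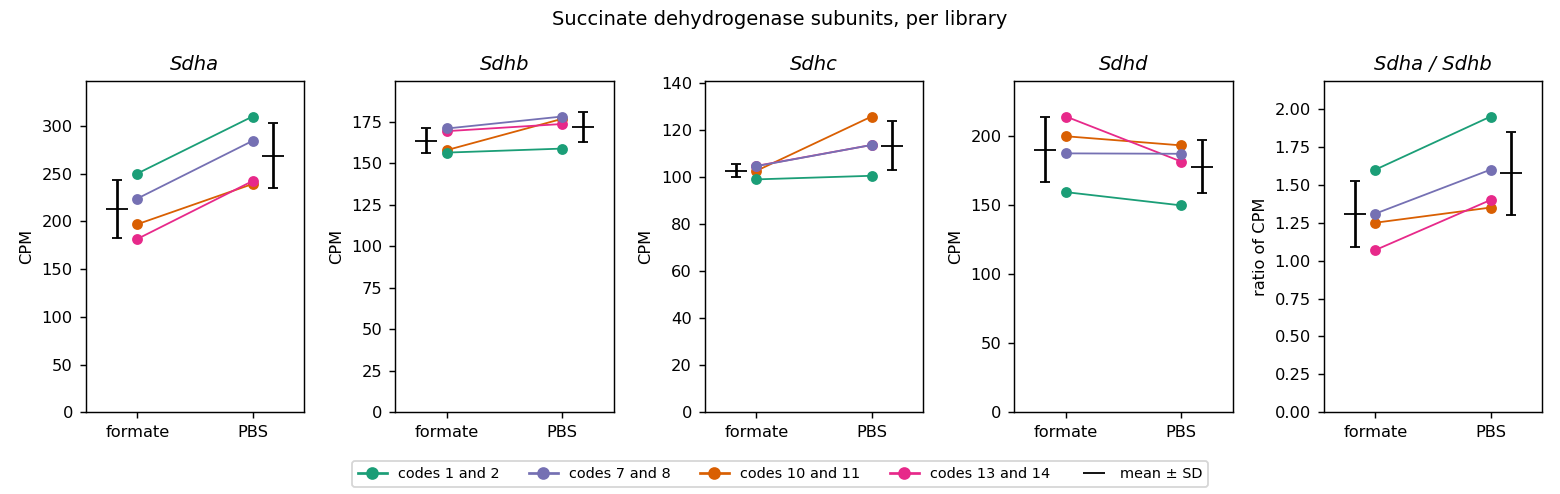
CPM of the 4 succinate dehydrogenase genes and the ratio of Sdha to Sdhb in each library, formate on the left and PBS on the right, with lines joining neighbouring title codes and black marks for mean and SD (n = 4). The Sdha lines slope up toward PBS in all 4 pairs, the Sdhb lines also rise, by 0.02 to 0.16 on the log2 scale, and the Sdhd lines lie flat or slope down, by up to 0.24 in codes 13 and 14.

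The promoters of the 3 subunit genes with an entry are shown so that the gene that fell can be set beside its partners. They are the 250 bases before the start in RefSeq (GRCm38.p6), and capitals mark matches, on either strand, to the palindromic core of the NRF1 motif, CCGGAAG (an ETS motif) and CCAAT. Sdha is chr13:74350241-74350490 on the minus strand, Sdhb chr4:140961021-140961270 on the plus strand and Sdhd chr9:50603850-50604099 on the minus strand.
Sdha: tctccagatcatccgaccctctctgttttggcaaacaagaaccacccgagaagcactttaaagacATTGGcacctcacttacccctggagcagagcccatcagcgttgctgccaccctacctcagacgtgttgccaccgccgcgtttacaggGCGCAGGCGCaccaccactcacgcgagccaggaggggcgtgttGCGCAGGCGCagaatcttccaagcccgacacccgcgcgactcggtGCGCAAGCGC
Sdhb: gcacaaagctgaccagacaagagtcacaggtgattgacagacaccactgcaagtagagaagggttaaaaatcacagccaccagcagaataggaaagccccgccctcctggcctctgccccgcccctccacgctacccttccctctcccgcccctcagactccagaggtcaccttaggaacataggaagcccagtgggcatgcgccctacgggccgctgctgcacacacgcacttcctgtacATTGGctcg
Sdhd: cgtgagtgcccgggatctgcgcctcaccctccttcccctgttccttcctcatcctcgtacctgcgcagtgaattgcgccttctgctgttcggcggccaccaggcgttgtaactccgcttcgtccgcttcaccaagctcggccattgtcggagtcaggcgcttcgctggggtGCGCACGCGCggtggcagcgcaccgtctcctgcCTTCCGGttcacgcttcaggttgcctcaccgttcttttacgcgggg

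The Sdha promoter holds 3 NRF1 matches, with first bases 98, 55 and 10 bases before the start, and the Sdhd promoter 1, at 79. In windows of 300 bases, 250 before to 50 after the start, 3 or more NRF1 matches were found in 32 of 32851 windows of all genes (0.0974%) and in 1 of 40 windows of the members, that of Sdha. At least 1 match stood in 4.60% of all windows and in 4 of the 40, those of Dld, Sdha, Sdhd and Sucla2. Among genes called lower with the block it stood in 1 of 13 windows, from 8 genes, and among the other members in 3 of 27, from 21 genes. Any link between the matches and the changes with formate was not tested. CCAAT stood in 37.4% of all windows and in 25 of the 40 (62.5%), CCGGAAG in 8.86% and in 6 (15.0%). Windows of the same gene can overlap, as several of Ogdh do, and every Ogdh window holds CCAAT, so windows are not independent. A match is a run of letters, not a measured binding site. The table holds windows for 29 of the 33 genes.

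In the steps from fumarate to oxaloacetate 1 of 3 genes fell with the block. Mdh2, the mitochondrial malate dehydrogenase (ENSMUSG00000019179, chromosome 5, 135778480 to 135790398), had 416, 390, 346 and 347 CPM with formate and 442, 425, 390 and 387 CPM with PBS. The groups overlapped and each formate library lay below its neighbour. Means were 374 ± 34.3 and 411 ± 27.0 CPM with formate and PBS (SD, n = 4; log2 change -0.14, SE 0.04, edgeR adjusted p = 0.0488 with the block; SE 0.09, 0.998 without). The call was lost without any 1 pair (0.0801 to 0.150) and with offsets for GC content (log2 change -0.09, 0.157). Fh1, fumarase, averaged 125 ± 6.83 and 124 ± 11.3 CPM, and Mdh1, the cytosolic malate dehydrogenase, 187 ± 16.6 and 196 ± 31.1 CPM, with formate and PBS. Neither passed (0.848 and 0.470 with the block).

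Me2, the mitochondrial malic enzyme that turns malate into pyruvate (ENSMUSG00000024556), had 155, 160, 225 and 187 CPM with formate and 169, 181, 264 and 215 CPM with PBS. The groups overlapped, with libraries of codes 10 to 14 higher in both, and each formate library lay below its neighbour. Means were 182 ± 32.1 and 207 ± 42.5 CPM with formate and PBS (SD, n = 4; log2 change -0.18, SE 0.04, edgeR adjusted p = 0.0130 with the block; -0.19, SE 0.17, 0.998 without). It passed only in the fit that left out codes 10 and 11 (0.0321), and the other 3 such fits gave 0.0560 to 0.0701.

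**Figure D4:**
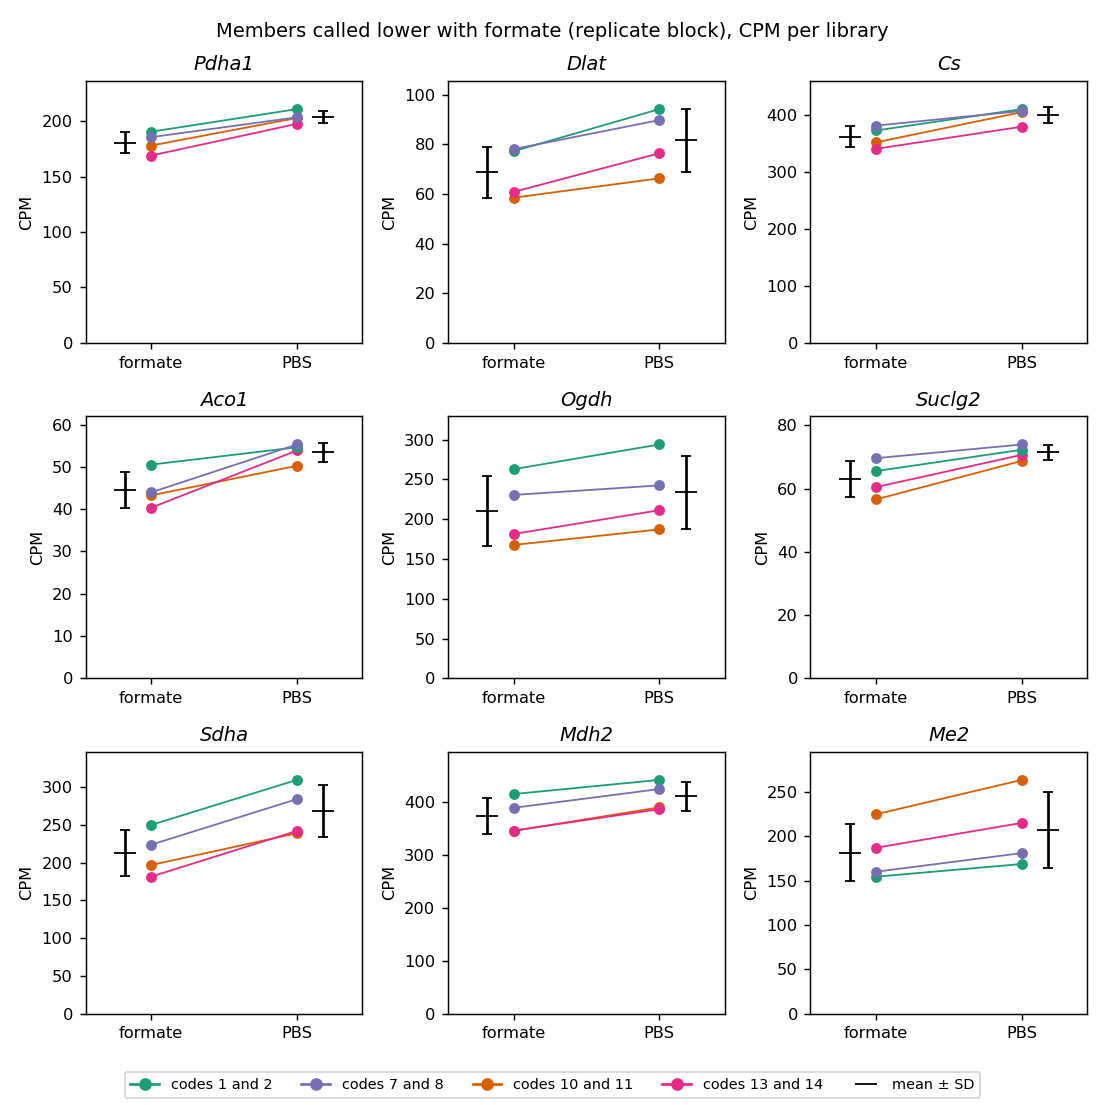
CPM per library of the 9 genes called lower with the block, formate on the left and PBS on the right, with lines joining neighbouring title codes and black marks for mean and SD (n = 4). Every line rises toward PBS, and the groups are fully separate for Pdha1 only.

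Differences between the library sets were larger than those between formate and PBS for several of the genes. Mean CPM differed more than 1.5-fold between codes 10 to 14 and codes 1 to 8 for 3 of the 33, Pdk1, Idh1 and Me1 (9.09%, against 18.4% of all tested genes). Ranges of the sets were separate for 12 (36.4%, against 33.9%).

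Pdk1, the kinase gene induced by low oxygen through HIF-1, had 89.5, 132, 250 and 211 CPM with formate and 87.0, 138, 289 and 214 CPM with PBS. All libraries with codes 10 to 14 lay above those with codes 1 to 8, by 2.15-fold in the mean, and the changes within pairs lay between -0.21 and 0.04 on the log2 scale (log2 change -0.06, SE 0.05, edgeR adjusted p = 0.407 with the block). Idh1, the cytosolic NADP-linked isocitrate dehydrogenase, had 3.22, 4.19, 15.8 and 12.7 CPM with formate and 2.35, 4.12, 21.4 and 12.5 CPM with PBS, 4.49-fold higher in codes 10 to 14. Its log2 change was -0.17 (SE 0.73, 0.998 without the block; -0.04, SE 0.12, 0.870 with it). The ratio of Idh1 to Idh2 was 0.0781, 0.0924, 0.322 and 0.305 with formate and 0.0548, 0.0845, 0.38 and 0.277 with PBS, so that it followed the library set rather than the group. Me1, the cytosolic malic enzyme and a source of NADPH, had 1.33, 4.19, 6.34 and 4.81 CPM with formate and 1.68, 3.31, 6.83 and 6.35 CPM with PBS (-0.13, SE 0.14, 0.618 with the block), 2.32-fold higher in codes 10 to 14.

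**Figure D5:**
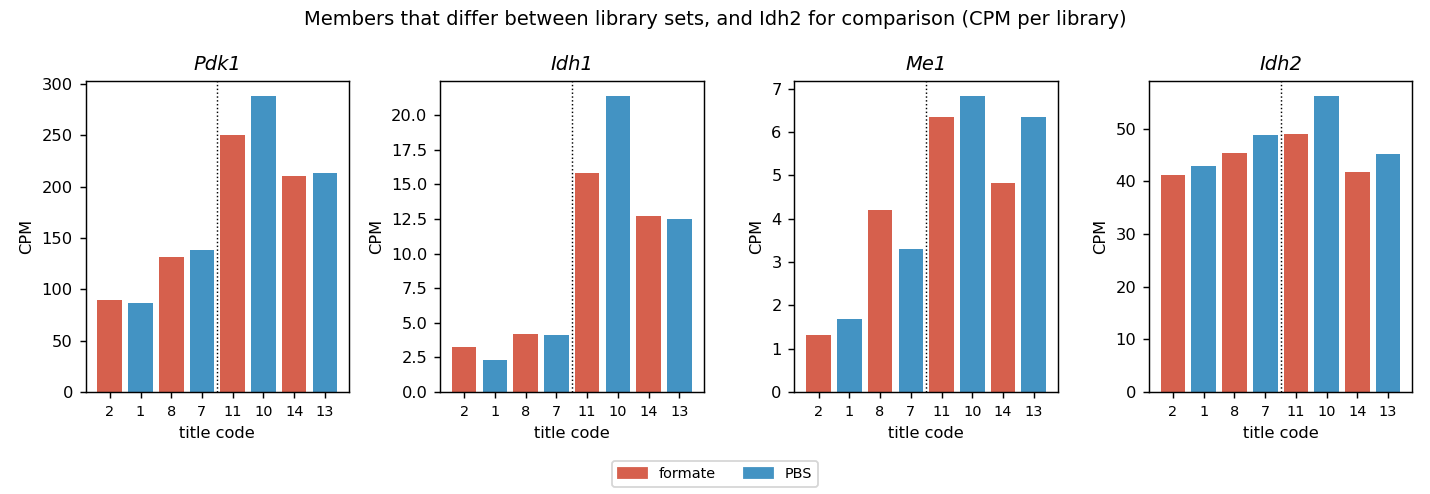
CPM of Pdk1, Idh1, Me1 and, for comparison, Idh2 in each library by title code, formate in red and PBS in blue, with a dotted line between the set of codes 1 to 8 and the set of codes 10 to 14. Pdk1 and Idh1 bars on the right are all taller than those on the left, while Idh2 bars lie between 41.3 and 56.2 CPM in both sets.

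Fitted within each set alone, 2 against 2, edgeR called 0 of the 33 genes in either direction. These fits called 0 of all tested genes, so their count says nothing particular to the 33. The median log2 change of the 33 was -0.03 in codes 1 to 8 and -0.15 in codes 10 to 14. In an edgeR test of the difference between these changes, with the neighbours as a block, 0 of the 33 passed (smallest adjusted p = 0.933), where 0.0677% of all tested genes passed. An unadjusted p under 0.05 was reached by 1 of the 33, Idh3g, against 5.06% of all tested genes.

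Per kilobase of the principal transcript, levels over all 8 libraries spanned a wide range. Mdh2 was highest at 270 ± 23.8 CPM per kb (SD, n = 8), followed by Sdhd at 150 ± 17.0, Sdhb at 147 ± 7.68 and Cs at 130 ± 8.82, and Sdhd and Sdhb did not differ beyond their spread. Sdha was at 83.1 ± 14.5 and Sdhc at 34.1 ± 2.84 CPM per kb. Within pyruvate dehydrogenase the E1 genes Pdhb and Pdha1 had 71.2 ± 4.03 and 67.5 ± 4.98 CPM per kb, Dld 51.6 ± 3.57, Dlat 18.6 ± 3.18 and Pdhx 11.1 ± 1.28. The kinases Pdk3 and Pdk1 had 35.1 ± 5.12 and 34.01 ± 14.5 CPM per kb, and their order turned with the library set. In codes 10 to 14 Pdk1 had 40.7 to 55.7 and Pdk3 32.9 to 44.9 CPM per kb, with Pdk1 above Pdk3 in each library. In codes 1 to 8 Pdk1 had 16.8 to 26.7 and Pdk3 30.9 to 32.8 CPM per kb, with Pdk1 below Pdk3 in each library. Pdk2 had 0.752 ± 0.197 CPM per kb, the lowest of the 33. The genes called lower with the block had levels from 12.8 (Aco1) to 270 CPM per kb (Mdh2).

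Around the cycle 44 rows of 46 listed genes were tested, Nnt having 2 rows and Pdk4, Acod1 and Ppargc1a being too low. Of the 44 rows 0 passed without the block in edgeR (1 had an unadjusted p under 0.05) and in DESeq2, and with the block 6 fell (13.6%, against 7.52% of all tested genes and 17.7% of those with a mean from 50 CPM up) and 0 rose (against 5.35%). Among these rows only Got2 was called in all 4 fits that left out 1 pair. Got2, the mitochondrial aspartate aminotransferase of the malate-aspartate shuttle, had 336, 318, 260 and 266 CPM with formate and 386, 364, 311 and 332 CPM with PBS (log2 change -0.24, SE 0.04, edgeR adjusted p = 0.00448 with the block). Each formate library lay below its neighbour, and the groups overlapped. Slc25a1, the mitochondrial citrate carrier (-0.19, 0.0255), and Acly, which splits citrate in the cytosol (-0.17, 0.0307), fell with it, as did 1 row of the transhydrogenase gene Nnt (-0.28, 0.0386), whose other row did not pass (0.10, 0.628). DESeq2 with the block did not call the Nnt row that fell in edgeR (DESeq2 adjusted p = 0.0739). The 2 Nnt rows overlap at the same place and on the same strand. How reads were shared between them was not tested, so the counts of each row are uncertain.

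The remaining calls were in transcription factor genes. Nrf1, a factor that drives nuclear genes of mitochondrial proteins, averaged 76.0 ± 6.98 CPM with formate and 84.6 ± 7.49 CPM with PBS (log2 change -0.15, edgeR adjusted p = 0.0347 with the block). Gabpa, the DNA-binding subunit of the factor also called NRF-2, averaged 73.6 ± 9.17 and 82.2 ± 6.68 CPM (-0.16, 0.0325). When 1 pair was left out, Gabpa was called in 0 of 4 fits (0.0614 to 0.128), the Nnt row in 0 (0.0579 to 0.165), Nrf1 in 1, and Acly and Slc25a1 in 2 each. With offsets for GC content 2 of the 44 rows were called lower, Got2 and Gabpa (4.55%, against 5.57% of all tested genes). Among the 33 genes 8 were then called lower (against 5.57% of all tested genes) and 0 higher (against 4.16%). Cs, Ogdh and Mdh2 were no longer called, and Pdk3 and Sucla2 were. Of the 4 genes for succinate dehydrogenase assembly factors, which help to load flavin and iron-sulfur clusters, none passed, and their log2 changes lay between 0.04 and 0.13 with the block. None of the 4 lipoate genes passed. Ldha, lactate dehydrogenase A, which competes for pyruvate, had 2610, 3157, 4206 and 3899 CPM with formate and 2575, 3314, 5278 and 4335 CPM with PBS (-0.13, SE 0.06, edgeR adjusted p = 0.139 with the block). DESeq2 with the block called it lower (-0.14, DESeq2 adjusted p = 0.0492).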

How the data were processed

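RNA from 8 libraries was analysed, 4 with formate and 4 with PBS. The values are expected counts per gene, which the authors deposited as 1 table of 35072 genes. Per the submitters' processing notes, Trimmomatic, kallisto and MultiQC were used, with build names GRCm38 and mm10. Transcript release, strand setting and tool versions: not given in the sources used here. Counts were rounded to whole numbers, filtered with filterByExpr (13299 genes kept) and scaled by TMM in edgeR 4.0.16 (R 4.3.3, limma 3.58.1). Tests were edgeR's quasi-likelihood tests with Benjamini-Hochberg adjustment over all 13299 genes and a threshold of 0.05. SE is the size of the log2 change divided by the square root of F.

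The fit without a pairing term was the main one. Deviations from the group means correlated at 0.653, 0.369, 0.656 and 0.370 within the 4 pairs of neighbouring title codes. Other formate and PBS libraries of the same set correlated at 0.270 to 0.373, so that for codes 7 and 8 and codes 13 and 14 neighbours were no closer, or hardly closer, than other libraries of their set. Since every pair exceeded 0.1, values with the pairs as a block stand beside it. The pairing was read from the codes in the titles, and the accession-order replicate numbers pair the same libraries. Alternatives were DESeq2 1.42.0, other scalings and filters, GC offsets, leaving out libraries or pairs, and fits within library sets. The test of the difference between the library sets was added after the data were seen.

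The 33 genes, the 46 pathway genes and the markers were chosen with earlier results of these data known. Genes named with full statistics were those called and the 3 with the largest change among the others. 1 gene of the pathway list is not reported here by name. Scripts were tested on simulated counts, where the size of recovered changes was checked only for folds larger than those of the 33 genes.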

Additional observations from a re-analysis of the deposited data

Results flagged for a closer look

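In 66 groups of 4 libraries, the 33 genes in formate and in PBS, 1 library stood apart from its group. The PBS library with code 1 had 106.8 CPM of Fh1, the fumarase gene, and the nearest PBS library had 127.6 CPM. The gap was 0.852 of the range of the group, above the Dixon limit for 4 values. Chance gives such a gap in about 1 in 20 groups.

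Gpt2, the mitochondrial alanine aminotransferase gene of the pathway list, differed in its formate change between the library sets. Its log2 change was 0.25 in codes 10 to 14 and 1.58 in codes 1 to 8, each from a fit within the set (edgeR adjusted p = 0.911 and 0.271). In the edgeR test of the difference, with the neighbours as a block, it was -1.35 (adjusted p = 0.00384), and 0.0677% of all tested genes passed that test. Gpt2 was the only one of the 44 pathway rows to pass it.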

How the results depend on the processing

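Calls depended on the replicate block. Of the 33 genes 0 were called lower without it, also in DESeq2 and with the library set as a term. With the block 9 were called lower, 9 in DESeq2, 8 with GC offsets, 4 with library size only, 6 with upper quartile factors and 2 to 5 without 1 pair. Genes called higher numbered 1 with the block and library size only, and 0 to 1 without 1 pair. Of the other pathway genes 6 were called lower with the block, 7 in DESeq2, 2 with GC offsets, 1 with library size only, 2 with upper quartile factors and 1 to 6 without 1 pair. Of all tested genes 10 were called lower in DESeq2, 1000 with the block, 1082 with the block in DESeq2, 741 with GC offsets, 539 with library size only, 736 with upper quartile factors and, without 1 pair, 177, 419, 815 and 278. Called higher were 11, 711, 492, 553, 1048, 832 and 160, 303, 556 and 224 in the same order (pairs by rising code), 0 within either library set, and 0 to 1 without 1 library, against 1 in the fit without the block.

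All 9 genes called with the block had a log2 change below 0 in each of the fits run. Without 1 library and without the block, Ogdh ranged from -0.28 (without formate replicate 3) to -0.02 (without PBS replicate 3) and Me2 from -0.31 (without formate replicate 1) to -0.05 (without PBS replicate 1). The median of the 33 ranged from -0.14 to -0.05 without 1 library. The change of Pcx was 0.008 within codes 1 to 8. That of Idh1 was 0.20 within codes 1 to 8, 0.14 with the block without codes 10 and 11, and from -0.58 to 0.51 without 1 library (0.11 and 0.08 without formate replicates 3 and 4, 0.51 without PBS replicate 1). The cause was not tested. Scaling by library size moved the median of all genes to 0.03, and 22 of the 33 genes then lay below 0. Changes of 0.1 on the log2 scale are of the size of the SE of most of these genes without the block.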

Other observations

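Pck2, the mitochondrial phosphoenolpyruvate carboxykinase that draws oxaloacetate from the cycle, had 91.1, 105, 102 and 105 CPM with formate and 18.8, 29.4, 98.8 and 60.3 CPM with PBS, in the order codes 2, 8, 11 and 14 and codes 1, 7, 10 and 13. The formate libraries lay close together and the PBS libraries ranged widely, with code 10 near the formate values. The log2 change was 1.19 (SE 0.50, edgeR adjusted p = 0.257 with the block). Gpt2, the mitochondrial alanine aminotransferase, had 46.4, 55.2, 42.3 and 50.1 CPM with formate and 14.8, 19.1, 42.3 and 36.2 CPM with PBS (0.88, SE 0.40, 0.280). The log2 changes within codes 10 to 14 and within codes 1 to 8 were 0.39 and 2.03 for Pck2 and 0.25 and 1.58 for Gpt2. In the edgeR test of the difference between the sets Gpt2 passed (adjusted p = 0.00384) and Pck2 did not (0.944). Neither gene passed the test of formate against PBS over all 8 libraries, and both were singled out after their values were seen.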
